A study of Homo sapiens with 6 samples.

Results

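NF-kB is a family of dimeric transcription factors held inactive in the cytoplasm by inhibitor proteins. In the canonical route, the IKK kinase complex marks the inhibitors for destruction and RELA-containing dimers enter the nucleus. In the non-canonical route, the NFKB2 product p100 is processed to p52, which pairs with RELB. Several genes of the system are themselves switched on by NF-kB, so that inhibitors such as NFKBIA and TNFAIP3 (A20) act as a feedback brake. In kidney tubule cells the pathway is known for driving cytokine and chemokine genes during injury. The 10 genes described here were chosen by name: the subunit genes NFKB1, NFKB2, RELA and RELB, the inhibitor genes NFKBIA, NFKBIB and NFKBIE, the kinase gene IKBKB, and the feedback genes TNFAIP3 and BIRC3. All 10 were found by gene symbol among the 16116 genes of the deposited gene table, and all 10 passed the filter on low counts.

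The data are bulk RNA-seq of HK-2 cells, an immortalised human proximal tubule line. A knockout group (KO, genotype FAM134B-KO) of 3 libraries was compared with a wild-type group (WT) of 3 libraries; no treatment, time or further allele is labelled. FAM134B is the former name of RETREG1, a receptor that delivers endoplasmic reticulum to autophagosomes, whereas the series design text names TAX1BP1, an adaptor protein known to work with TNFAIP3. Whether libraries of a group came from separate cultures, and whether the KO line is 1 clone, is not labelled, so p-values measure only the spread between these libraries.

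RETREG1 had 33, 27 and 28 reads in KO libraries, against 72, 80 and 73 reads in WT libraries, and TAX1BP1 was at 151 ± 9.46 CPM in KO and 156 ± 6.30 CPM in WT (SD, n = 3 each; CPM, read counts scaled to library size and composition). Libraries held 16796964 to 17127468 estimated reads. Of 12 proximal tubule markers, 6 were under 1 CPM in every library, among them LRP2, CUBN and AQP1, while PAX8, GGT1 and MME were expressed. The tubule markers moved both ways: PAX8 rose to 561 CPM in KO, against 458 CPM in WT, CDH6 fell to 23.97 CPM in KO, against 148 CPM in WT, and SLC4A4 fell to 19.5 CPM in KO, against 49.5 CPM in WT, while GGT1, MME and SLC5A2 were not called. Their sum was 830 to 912 CPM in KO and 901 to 978 CPM in WT. Of 5 leukocyte markers in the table, 4 were under 1 CPM in every library, and PTPRC, the common leukocyte antigen, had 1 read in 1 library and 0 in the other 5. Summed leukocyte markers, mostly CD68, spanned 23.8 to 24.7 CPM in KO and 21.3 to 25.8 CPM in WT, and endothelial markers 0.353 to 0.701 CPM in KO and 0.237 to 0.711 CPM in WT. Summed epithelial markers were 1328 to 1349 CPM in KO and 1528 to 1593 CPM in WT. Of the 6 tested, 2 were called higher (EPCAM and CLDN1) and 4 lower (KRT7, KRT8, KRT18 and KRT19). CLDN1 rose to 536 CPM in KO, against 420 CPM in WT, and KRT7 fell to 144 CPM in KO, against 280 CPM in WT. Fibroblast markers summed to 50.04 to 52.8 CPM in KO and 21.2 to 27.2 CPM in WT, a sum set by COL14A1, at 34.3 CPM in KO and 0.196 CPM in WT, while COL1A1 fell to 17.9 CPM in KO, against 24.03 CPM in WT. The part of these marker shifts in the results below was not tested. In bulk libraries, a change in the share of a cell type and a change in RNA per cell cannot be told apart.

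The upstream sequences of several members carry the element to which NF-kB dimers are known to bind, and they are shown here because the same factor family is both product and known regulator of these genes. RefSeq windows of 300 bases, from 250 bases before to 50 after an annotated start (GRCh38.p14), were available for 7 of the 10 genes, in 12 windows. The motif searched was GGGNNTTTCC, or GGAAANNCCC when read on the other strand. It occurred in a window of 6 of the 7 genes and in 7 of the 12 windows. Among all 35116 windows in the table, 671 held it (1.91%), and among all 27305 genes with a window 635 did (2.33%). The windows of RELA did not hold these letters. For the second NFKB2, the first NFKBIB and the first RELA start, the bases after the start were not found in a GENCODE transcript of the gene. Of a list of other NF-kB target genes, 7 of 24 with a window held it. Of these 7, CXCL2, IL6 and LTB were higher in KO, CCL20 and IL32 were lower, CXCL3 was not called, and CXCL1 was not analysed here. Among all tested targets, 66.7% were called in either direction, beside 36.8% of all genes. LTB lies in a stretch of chromosome 6 where most genes were higher in KO. A match is a description of letters in a window and not a measured binding site.

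The 250 bases upstream of the NFKBIA start (chr14:35404750-35404999, minus strand), of the third NFKB2 start (chr10:102395455-102395704, plus strand) and of the TNFAIP3 start (chr6:137867009-137867258, plus strand) are given 5′ to 3′ on the gene's strand, with the motif in capitals. NFKBIA and NFKB2 were among the members most raised in KO, and TNFAIP3, whose window holds 2 matches, was not called.
NFKBIA: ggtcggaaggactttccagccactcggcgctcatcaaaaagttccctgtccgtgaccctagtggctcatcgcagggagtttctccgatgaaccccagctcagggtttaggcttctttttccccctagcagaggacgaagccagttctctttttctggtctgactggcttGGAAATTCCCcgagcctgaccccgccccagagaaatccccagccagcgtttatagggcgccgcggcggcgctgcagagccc
NFKB2: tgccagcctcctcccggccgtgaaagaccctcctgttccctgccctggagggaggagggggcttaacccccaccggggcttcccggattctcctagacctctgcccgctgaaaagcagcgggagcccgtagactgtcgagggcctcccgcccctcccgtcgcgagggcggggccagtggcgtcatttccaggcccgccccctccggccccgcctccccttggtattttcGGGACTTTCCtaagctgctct
TNFAIP3: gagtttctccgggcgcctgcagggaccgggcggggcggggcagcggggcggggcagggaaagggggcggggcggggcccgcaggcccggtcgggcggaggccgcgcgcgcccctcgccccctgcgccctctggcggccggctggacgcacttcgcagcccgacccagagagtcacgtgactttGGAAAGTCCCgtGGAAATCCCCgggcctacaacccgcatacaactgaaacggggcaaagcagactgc

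The remaining matches are given with 10 bases on each side, again with the motif in capitals, so that they can be compared with those above. The match began 199 bases upstream of the BIRC3 start (chr11:102317285-102317294), 49 bases upstream of the first NFKB1 start (chr4:102501310-102501319), 78 bases upstream of the second NFKB2 start (chr10:102394500-102394509) and 28 bases upstream of the second NFKBIB start (chr19:38899941-38899950). All 4 genes lie on the plus strand.
BIRC3: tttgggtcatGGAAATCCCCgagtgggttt
NFKB1: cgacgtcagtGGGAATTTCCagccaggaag
NFKB2: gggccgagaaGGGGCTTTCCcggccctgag
NFKBIB: gggcgtggtgGGGAATTTCCcgcagggcgg

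Of the 10 genes, 8 rose in KO, 0 fell and 2 were not called at an adjusted p under 0.05 in edgeR's quasi-likelihood test. Over all 12702 tested genes, 18.7% were called higher, 18.1% lower and 36.8% in either direction. The 8 that rose covered 3 of 4 subunits, all 3 inhibitors, the kinase and BIRC3. Their changes were modest, from 1.14-fold for IKBKB to 1.64-fold for NFKBIE. The median log2 fold change of the 10 was 0.27, beside 0.00 over all tested genes. KO and WT libraries did not overlap for the same 8 genes, whereas 23.2% of tested genes had every KO library above every WT library, 23.0% every KO library below, and 46.3% either. DESeq2 called 6 of the 10 higher and 0 lower, beside 1955 higher and 1810 lower of the 14544 genes it tested. Limma on log2 of the deposited TPM plus 1 called 5 of the 10 higher and 0 lower, beside 1663 higher and 2146 lower of 12068 genes. The genes were chosen with earlier results of these data known, so these counts describe them and are not a test of the group.

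**Figure D1:**
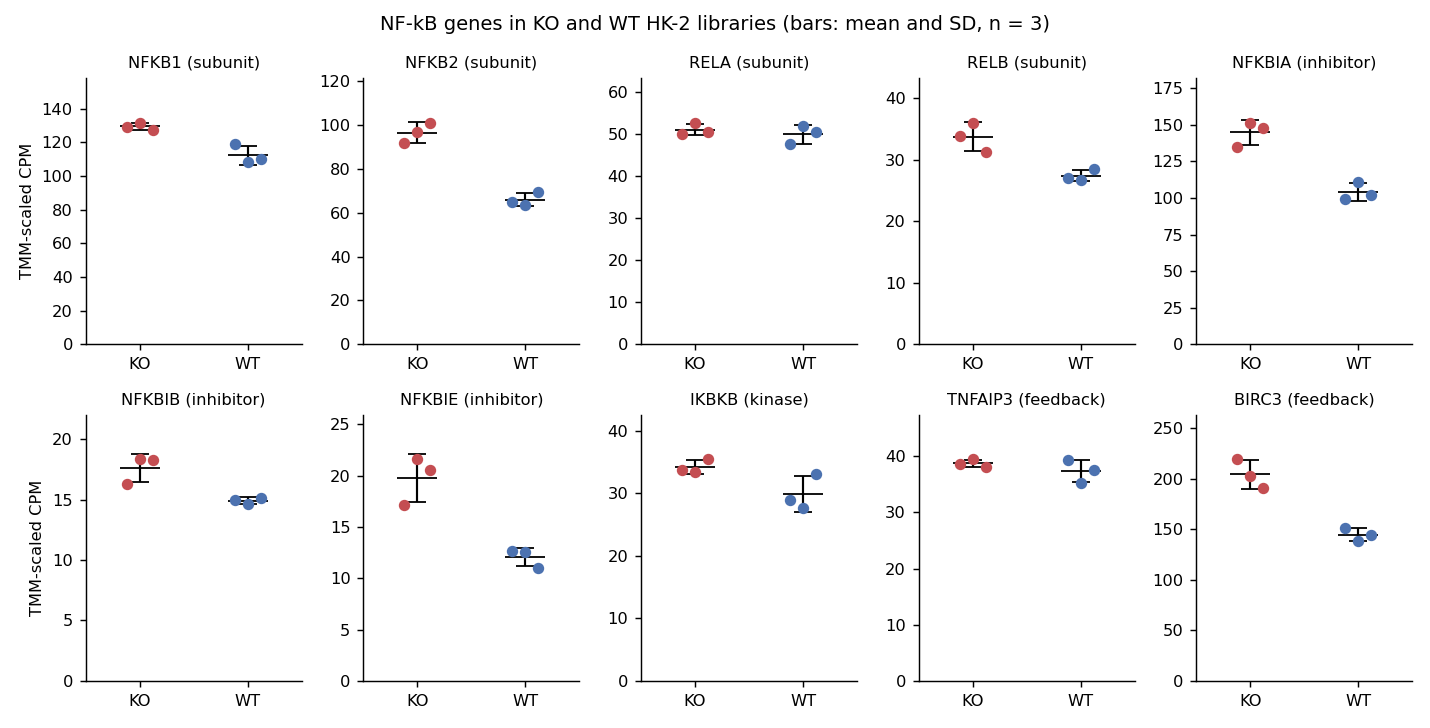
Levels of the 10 NF-kB genes in TMM-scaled CPM (vertical axes, each from 0), with KO libraries on the left and WT libraries on the right of each panel; points are libraries and bars the mean and SD of 3. All KO points lie above all WT points except for RELA and TNFAIP3, whose groups overlap.

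NFKB2, which encodes the p100 precursor of p52 and is the hallmark gene of the non-canonical route, had the smallest adjusted p of the 10. It stood at 91.8, 96.8 and 101 CPM in KO libraries, against 64.9, 63.7 and 69.2 CPM in WT libraries. Every KO library lay above every WT library, and the gap between groups exceeded the spread within either. Its log2 fold change was 0.55 (SE 0.057), a 1.46-fold rise, with an adjusted p of 8.69e-09 in edgeR.

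RELB, the partner of p52, rose as well. Its levels were 33.8, 36.0 and 31.3 CPM in KO libraries, against 27.1, 26.7 and 28.4 CPM in WT libraries. KO replicate 3 lay closest to the WT range, and the groups did not overlap. The log2 fold change was 0.30 (SE 0.072, adjusted p = 0.00149 in edgeR).

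NFKB1 encodes p105, the precursor of the p50 subunit of canonical dimers. It was at 129, 132 and 128 CPM in KO libraries, against 119, 108 and 110 CPM in WT libraries. WT replicate 1 was the highest WT library and still below every KO library. The log2 fold change was 0.20 (SE 0.053, adjusted p = 0.00295 in edgeR). On log2 of the deposited TPM plus 1 (transcript abundance scaled to transcript length) limma gave 0.15 with an adjusted p of 0.0580, and adjusted p-values over 17 alternatives ranged from 5.52e-05 to 0.0674.

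RELA encodes p65, the main activating subunit, and was not called. Its levels were 50.1, 52.8 and 50.5 CPM in KO libraries, against 47.6, 52.1 and 50.4 CPM in WT libraries. The groups overlapped in part: KO replicate 2 was the highest library and WT replicate 1 the lowest, with the other 4 libraries between. The log2 fold change was 0.03 (SE 0.062, adjusted p = 0.729 in edgeR), and its 95% interval ran from -0.10 to 0.16, so a rise of more than 1.12-fold lies outside it. Without WT replicate 1 the value was -0.0040 (adjusted p = 0.974).

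Among the inhibitors, NFKBIA (IkB-alpha), the rapidly renewed inhibitor of RELA dimers, rose 1.39-fold. Its levels were 135, 151 and 148 CPM in KO libraries, against 99.3, 111 and 102 CPM in WT libraries. The lowest KO library, replicate 1, was above the highest WT library, replicate 2. The log2 fold change was 0.48 (SE 0.057, adjusted p = 1.14e-07 in edgeR).

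NFKBIE (IkB-epsilon) showed the largest change of the 10 but lies in a stretch of chromosome 6 where most genes were higher in KO. Its levels were 17.2, 21.6 and 20.6 CPM in KO libraries, against 12.7, 12.5 and 11.1 CPM in WT libraries. KO replicate 1 was the lowest of its group, and the groups stayed apart. The log2 fold change was 0.71 (SE 0.095, adjusted p = 7.02e-07 in edgeR). Its 24 nearest tested neighbours, 12 on each side, had a median log2 fold change of 0.54, with 22 of the 24 above 0. The difference between NFKBIE and its neighbours was not tested.

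NFKBIB (IkB-beta), a more slowly turned-over inhibitor, rose by a smaller amount. Its levels were 16.3, 18.3 and 18.3 CPM in KO libraries, against 14.96, 14.6 and 15.2 CPM in WT libraries. The groups did not overlap, and the log2 fold change was 0.24 (SE 0.085, adjusted p = 0.0260 in edgeR). The call was lost without KO replicate 2 (0.21, adjusted p = 0.118), KO replicate 3 (0.21, 0.0832), WT replicate 1 (0.24, 0.050003) or WT replicate 2 (0.23, 0.0804), and with DESeq2 (0.24, 0.112). Over 17 alternatives its adjusted p-values ranged from 0.00796 to 0.118.

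IKBKB encodes IKK-beta, the catalytic kinase of the canonical IKK complex. Its levels were 33.7, 33.4 and 35.4 CPM in KO libraries, against 28.9, 27.6 and 33.1 CPM in WT libraries. WT replicate 3 lay just under the KO range, so the groups barely separated. The log2 fold change was 0.19 (SE 0.074, adjusted p = 0.0392 in edgeR). The call was lost without KO replicate 2 (0.21, adjusted p = 0.0678), KO replicate 3 (0.17, 0.102), WT replicate 1 (0.17, 0.114) or WT replicate 2 (0.14, 0.211), and with DESeq2 (0.20, 0.104). Over 17 alternatives its adjusted p-values ranged from 0.00637 to 0.211.

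The feedback genes differed in their calls. BIRC3 encodes c-IAP2, a ubiquitin ligase of the TNF receptor complex that also restrains the non-canonical route. It was at 219, 203 and 191 CPM in KO libraries, against 151, 138 and 144 CPM in WT libraries. All KO libraries were well above the WT range, and the log2 fold change was 0.50 (SE 0.055, adjusted p = 2.71e-08 in edgeR). TNFAIP3 encodes A20, a ubiquitin-editing enzyme that shuts off signalling to IKK. It was at 38.7, 39.4 and 38.1 CPM in KO libraries, against 39.3, 35.3 and 37.6 CPM in WT libraries. The groups overlapped, and the log2 fold change was 0.05 (SE 0.066, adjusted p = 0.569 in edgeR), with a 95% interval from -0.08 to 0.19. The interval thus reaches a 1.14-fold rise, and the p does not show equal levels. The difference in response between BIRC3 and TNFAIP3 was not tested itself, but their 95% intervals (0.38 to 0.61 for BIRC3) did not overlap.

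**Figure D2:**
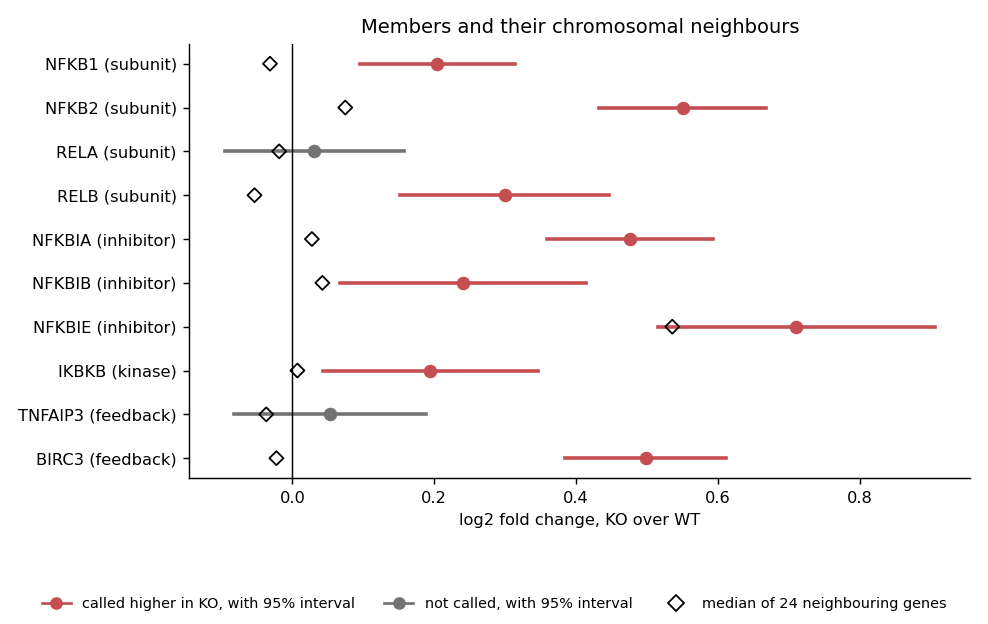
Log2 fold changes of the 10 genes, KO over WT (horizontal axis), with 95% intervals; red marks genes called higher and grey those not called, and open diamonds give the median log2 fold change of the 24 nearest tested genes. The neighbours of NFKBIE have a median of 0.54, while those of the other 9 genes lie between -0.05 and 0.07.

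For the other 9 genes, the neighbourhoods showed no such shift. Medians over the 24 nearest tested genes ranged from -0.05 around RELB to 0.07 around NFKB2. Outside the stretches of chromosomes 4 and 6 in which most genes were higher, 7 of 9 members were called higher and 0 lower, beside 16.2% of all genes there called higher. NFKB1 and TNFAIP3 also lie on chromosomes 4 and 6, but outside these stretches.

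Levels can be compared between genes in the deposited TPM, which is scaled to transcript length. NFKBIA was the most abundant in both groups, at 209 ± 8.70 TPM in KO and 153 ± 11.3 TPM in WT (SD, n = 3 each). In KO the order continued with NFKB1, NFKB2 and BIRC3 at 65.1, 62.7 and 60.9 TPM, whose neighbouring ranges overlapped, and then RELA at 42.2 TPM. In WT NFKB1 followed at 58.5 TPM, clear of BIRC3, NFKB2 and RELA at 44.1, 43.6 and 42.1 TPM, whose ranges overlapped. RELB and NFKBIB came next in each group, at 31.4 and 24.3 TPM in KO and at 26.1 and 20.8 TPM in WT. At the low end, IKBKB, NFKBIE and TNFAIP3 were at 17.6, 17.5 and 16.05 TPM in KO with overlapping neighbouring ranges. In WT TNFAIP3 and IKBKB overlapped at 15.9 and 15.6 TPM, and NFKBIE was lowest at 10.9 TPM.

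The balance between members moved with these changes. The NFKB2 to NFKB1 ratio of TPM was 0.917, 0.947 and 1.03 in KO libraries, against 0.702, 0.752 and 0.786 in WT libraries. The precursor transcripts were thus near parity in KO libraries, and the groups did not overlap. The RELB to RELA ratio was 0.764, 0.769 and 0.695 in KO libraries, against 0.642, 0.580 and 0.639 in WT libraries. KO replicate 3 was the lowest KO library and above all WT libraries. On the log2 scale these ratios were higher in KO by 0.37 and 0.26. Each had a two-sided exact permutation p of 0.1, the smallest that 3 libraries against 3 allow, so neither can pass 0.05.

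Summed transcripts of the inhibitor members exceeded those of the 4 subunit members in every library. REL, the remaining subunit gene, is not a member, was left out of this sum and was named after its values were seen. It was at 13.2, 11.9 and 11.1 TPM in KO libraries, against 12.7, 11.3 and 11.6 TPM in WT libraries. Adding REL would put the subunit sum above the inhibitor sum in WT replicates 1 and 3. The inhibitor sum was 239, 264 and 249 TPM in KO libraries, against 180, 200 and 176 TPM in WT libraries. The sum of the 4 subunits was 203, 205 and 196 TPM in KO libraries, against 170, 172 and 169 TPM in WT libraries. The ratio of the sums was 1.25 ± 0.0598 in KO and 1.09 ± 0.0670 in WT (SD, n = 3 each), a log2 difference of 0.20 with the same exact permutation p of 0.1. Within the inhibitors, NFKBIA made up 83.4 ± 0.772% of TPM in KO and 82.8 ± 0.725% in WT. Within the 4 subunits, NFKB2 took 31.1 ± 1.39% in KO and 25.6 ± 0.682% in WT, and RELA 21.0 ± 0.163% in KO and 24.7 ± 1.1995% in WT. NFKB1 took 32.3 ± 0.573% in KO and 34.4 ± 1.31% in WT. The RELB share was 15.6 ± 0.934% in KO and 15.3 ± 0.253% in WT, and the groups overlapped.

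**Figure D3:**
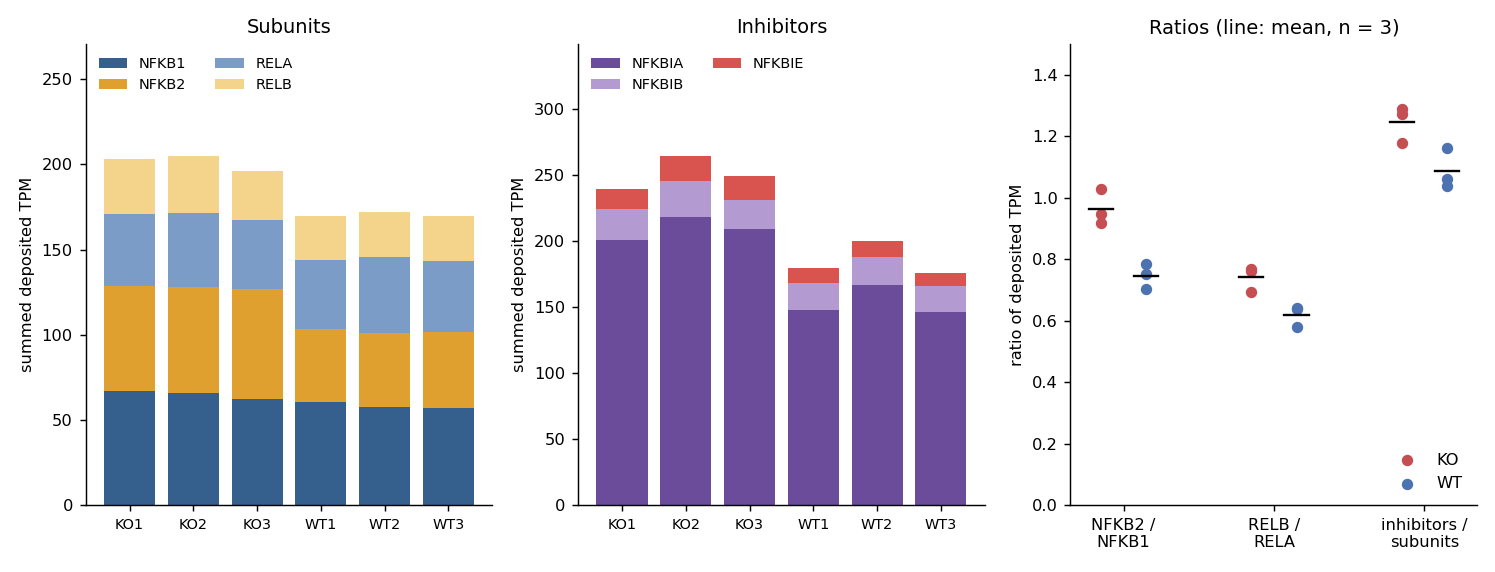
Summed deposited TPM of the 4 subunit genes (left) and the 3 inhibitor genes (middle) in each library, and 3 ratios of TPM (right) with a point per library and a line at the mean of 3. Both sums are higher in every KO library than in any WT library, and KO and WT points do not overlap in any of the 3 ratios.

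The transcript table splits each gene's reads over RefSeq models and holds 58 models of the 10 genes, of which 45 were tested. Only 1 of them, the single NFKBIA model NM_020529, was called higher in edgeR, and 0 were lower, while 9 had an unadjusted p under 0.05, 8 of them with more reads in KO and 1, an IKBKB model, with fewer. Over all 44030 tested transcripts, 12.4% had an unadjusted p under 0.05, 2.13% were called in either direction and 1.14% were called higher in KO. NM_020529 holds the same reads as the NFKBIA gene and was higher in KO by 0.46 on the log2 scale (SE 0.066), at an adjusted p of 0.0342 over all transcripts. It was not called when any single library was left out, with adjusted p-values from 0.0664 without WT replicate 2 to 0.157 without KO replicate 2. In between were 0.0669 without KO replicate 1, 0.145 without KO replicate 3, 0.130 without WT replicate 1 and 0.141 without WT replicate 3. The log2 fold change of NM_020529 stayed between 0.43 and 0.52 in these fits. Over all transcripts, the fits without a library called 119 to 307, beside 939 with all libraries. NFKBIE likewise has 1 model, NM_004556, with the same reads as the gene; its adjusted p over transcripts was 0.0620.

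For NFKB2, the models NM_002502, NM_001322934 and NM_001261403 had unadjusted p-values under 0.05, and each had more reads in KO. The most abundant, NM_002502, had 801, 786 and 886 reads in KO libraries, against 541, 608 and 719 reads in WT libraries (log2 fold change 0.41, SE 0.12, adjusted p = 0.208 in edgeR). NM_001261403 had 119, 116 and 117 reads in KO libraries, against 59.9, 62.8 and 58.7 reads in WT libraries. Its libraries were tight within each group and far apart between groups, yet its adjusted p was 0.0674 in edgeR. BIRC3 reads fell mainly on NM_001165, at 3250, 2909 and 2703 reads in KO libraries, against 2236, 2014 and 2089 reads in WT libraries (log2 fold change 0.49, adjusted p = 0.0582 in edgeR). RELB reads were mostly on NM_006509, with 460 ± 41.6 reads in KO and 359 ± 32.6 in WT, and RELA reads on NM_021975, with 761 ± 33.7 in KO and 774 ± 52.2 in WT (SD, n = 3 each).

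The split of NFKB1 and TNFAIP3 reads varied strongly between libraries of one group. NFKB1 model NM_003998 had 586, 709 and 615 reads in KO libraries, against 529, 306 and 190 reads in WT libraries, while XM_024454068, the most abundant in all, had 858, 820 and 739 reads in KO libraries, against 701, 860 and 1172 reads in WT libraries. WT replicate 3 stands out in both, low in the first and high in the second, with a gene total like that of WT replicate 2. TNFAIP3 model NM_006290 had 268, 224 and 196 reads in KO libraries, against 336, 235 and 234 reads in WT libraries. NM_001270508 had 130, 210 and 202 reads in KO libraries, against 68.6, 96.9 and 179 reads in WT libraries. Neither TNFAIP3 model was called (adjusted p = 0.863 and 0.683 in edgeR). The IKBKB reads were spread over 13 models, of which NM_001556 held 387 ± 27.9 reads in KO and 340 ± 52.7 in WT. The minor IKBKB model XM_011544522 had 0, 0.77 and 0 reads in KO libraries, against 14.4, 13.6 and 29.1 reads in WT libraries (unadjusted p = 0.00806, adjusted p = 0.148 in edgeR). NFKBIB reads were divided equally between paired copies of the same model, NM_001369699 with 89.1 ± 16.8 reads per copy in KO and 76.7 ± 8.24 in WT, so the transcript values of NFKBIB are uncertain.

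**Figure D4:**
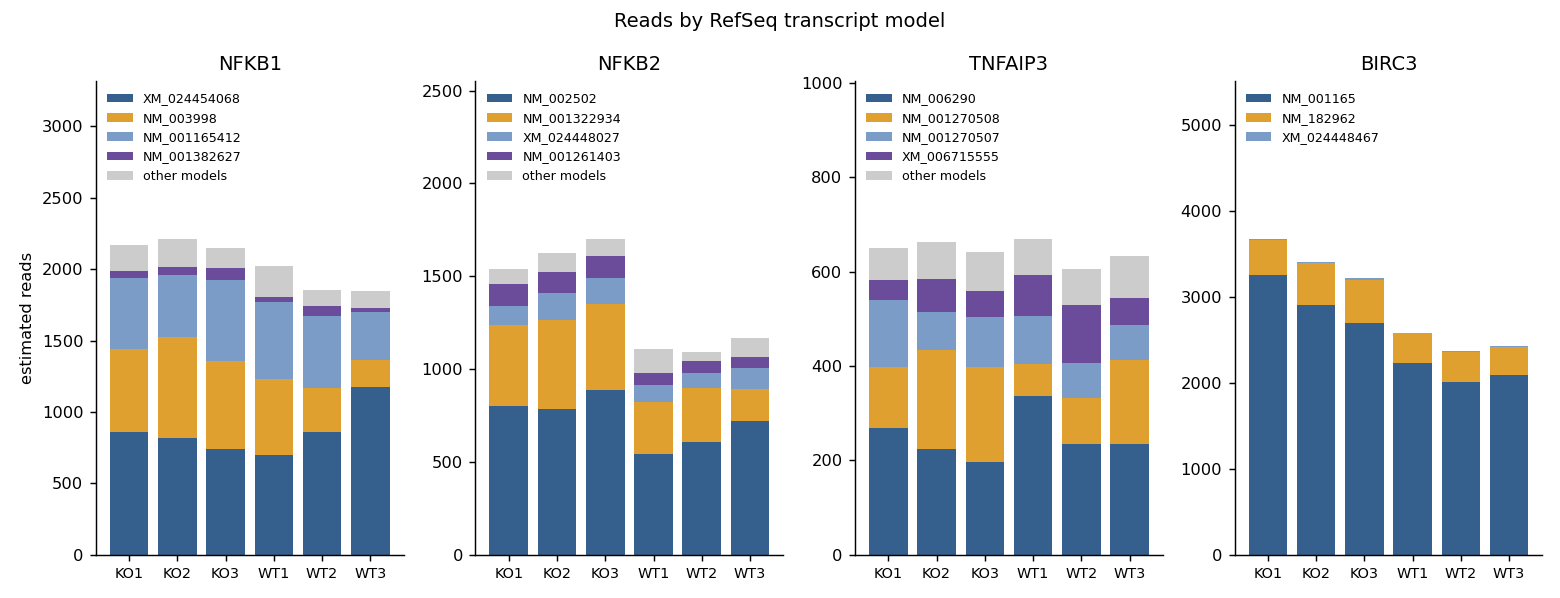
Estimated reads of NFKB1, NFKB2, TNFAIP3 and BIRC3 in each library (vertical axes), stacked by RefSeq transcript model, with KO libraries left of WT libraries. Bars of NFKB2 and BIRC3 are taller in KO, whereas the colours within NFKB1 and TNFAIP3 shift between libraries of the same group.

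The wider pathway did not move as a block. Of 78 other genes of the NF-kB system, 75 were in the table and 70 were tested. In KO 22 rose and 14 fell, together 51.4% of those tested beside 36.8% of all genes. Their median log2 fold change was -0.01, with 34 of the 70 above 0. Of the 22 that rose, 5 lie in the stretches of chromosomes 4 and 6 in which most genes were higher (RIPK1, TNIP2, TNF, LTB and IER3). These 5 were the only pathway genes tested there. Outside these stretches, 17 of 65 rose and 14 fell, beside 16.2% of all genes there called higher.

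Among 10 tested receptors, 2 rose and 1 fell, a share of 30% called beside 36.8% over all genes. TLR2, a sensor of bacterial lipoproteins, rose to 6.42 ± 0.312 CPM in KO, against 1.35 ± 0.257 CPM in WT (log2 fold change 2.24, adjusted p = 2.13e-11 in edgeR). TNFRSF12A, the receptor for TWEAK, fell to 95.6 ± 6.42 CPM in KO, against 109 ± 8.56 CPM in WT. TLR4, the lipopolysaccharide receptor, was the other that rose and was named after its values were seen, at 1.67 ± 0.687 CPM in KO and 0.157 ± 0.0911 CPM in WT.

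Of 14 adaptor and ubiquitin ligase genes, 6 rose and 4 fell, a share of 71.4% called beside 36.8% over all genes. IRAK1, a kinase that relays signals from interleukin-1 and Toll-like receptors, fell by 0.41 on the log2 scale. IRAK2, its close relative, rose by 0.52. TRAF2, an adaptor of TNF receptors, rose to 83.6 ± 10.5 CPM in KO, against 60.8 ± 2.39 CPM in WT. RBCK1, part of the ligase that builds linear ubiquitin chains, rose by 0.29. Of 8 other kinases and kinase partners, 2 rose and 0 fell, a share of 25% called. MAP3K8, the kinase held by p105, rose by 0.39, and TAB3, a partner of the kinase TAK1, by 0.34 on the log2 scale.

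Several further genes of the non-canonical route were named after their values were seen, because they were not called, beside TRAF2, BIRC3 and LTB of the same route, which rose, and TNFRSF12A, which fell. MAP3K14, the kinase NIK, was at -0.04 on the log2 scale (SE 0.088) and was not called by edgeR (adjusted p = 0.735). TRAF3 and BIRC2, which keep NIK low, were at -0.03 and -0.01, and CHUK, the IKK-alpha kinase, at -0.03. The receptor genes LTBR, CD40 and TNFRSF11A were at -0.07, -0.03 and -0.01 and were not called. REL, the remaining subunit gene, was at 72.6 ± 4.78 CPM in KO and 70.0 ± 5.04 CPM in WT (log2 fold change 0.05, adjusted p = 0.552). Among REL and 3 atypical inhibitor genes, only NFKBID, a nuclear IkB-like protein, was called, a share of 25% beside 36.8% over all genes. NFKBID rose to 7.55 ± 0.303 CPM in KO, against 5.93 ± 1.18 CPM in WT.

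Of 10 other brakes on the pathway, 2 rose and 2 fell, a share of 40% called that is close to the 36.8% over all genes. TNIP1 and TNIP2, partners of A20, rose by 0.30 and 0.53 on the log2 scale, and TNIP2 lies in the shifted stretch of chromosome 4. NLRC5, best known as the activator of MHC class I genes, fell to 1.88 ± 0.627 CPM in KO, against 6.96 ± 0.801 CPM in WT. PDLIM2, known in mouse as a ligase that removes nuclear RELA, fell by 0.34 on the log2 scale.

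Of 24 tested target genes, 9 rose and 7 fell, a share of 66.7% called beside 36.8% over all genes. The targets moved both ways, and their median log2 fold change was -0.00. IL6, an inflammatory cytokine, had a log2 fold change of 2.32 (SE 0.071). LTB, a ligand that signals through the non-canonical route, rose to 17.4 ± 1.61 CPM in KO, against 4.43 ± 0.470 CPM in WT. IER3, a stress-induced survival gene, rose by 1.06 on the log2 scale. LTB and IER3 lie in the shifted stretch of chromosome 6, where the median over 354 tested genes was 0.53. CCL2, a chemokine for monocytes, fell by 2.80 on the log2 scale.

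**Figure D5:**
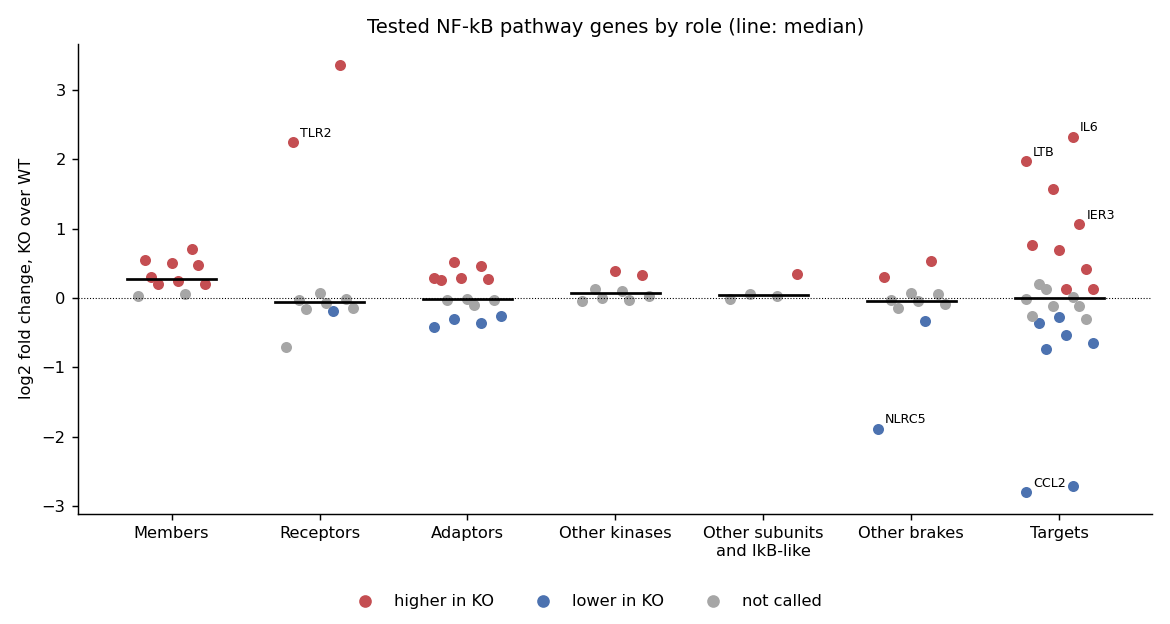
Log2 fold changes, KO over WT (vertical axis), of the tested members and of the other tested NF-kB genes by role; each point is a gene, red where called higher in KO, blue where called lower and grey where not called, and lines are medians. The members' median is 0.27, and those of the 6 other groups lie between -0.05 and 0.07.

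Over the 6 libraries, the genes whose centred log2 CPM profile lay nearest to that of NFKB2 were KIFC1, CD82 and RNF5, with root mean square differences of 0.022, 0.023 and 0.023 on the log2 scale. Their log2 fold changes were 0.56, 0.53 and 0.58, beside 0.55 for NFKB2, a closeness that follows from how they were picked. KIFC1 and RNF5 lie in the shifted stretch of chromosome 6, whereas NFKB2 lies on chromosome 10.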

How the data were processed

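The submitters' processing notes name build GRCh37 and the tools Cuffdiff 2.2.1, HISAT2 2.0.1, cutadapt 1.9.1, FastQC 0.10.1 and bcl2fastq 2.17.1.14. The read counter, library kit and strand setting were not given in the sources used here. Without a strand setting, reads of a gene and of an overlapping antisense gene cannot be told apart; annotated non-coding genes overlap NFKB1, RELA, IKBKB and TNFAIP3. The authors deposited estimated counts, TPM and FPKM per gene and per transcript. The 12 columns of the authors' group means were not used. Estimated counts were rounded and tested with edgeR 4.0.16 in R 4.3.3: filterByExpr (minimum count 10, minimum total 15), TMM factors, robust quasi-likelihood fit of KO against WT, Benjamini-Hochberg adjustment over all 12702 genes or 44030 transcripts, and a threshold of 0.05. Each SE was taken as the size of the log2 fold change divided by the root of F. The 3 ratios used deposited TPM. DESeq2 1.42.0 and limma 3.58.1 served as alternatives. At 16796964 to 17127468 reads per library, 3 reads correspond to 0.175 to 0.179 CPM. The scripts were tested on simulated data. No pair of replicate libraries agreed within sampling noise (chi-square per degree of freedom at least 2.02).

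The members, the pathway lists, the motif and the tests were chosen with earlier results of these data known. Named genes are the members, RETREG1 and TAX1BP1, and up to 4 called genes per pathway list with the smallest adjusted p and at least 5 CPM in the higher group. Beyond this rule, RIPK1 and TNF were named as called genes in the shifted stretches, and CXCL2, CXCL3, CCL20 and IL32 for a motif match. Further pathway genes named after their values were seen are marked where they appear. Neighbours and shifted stretches (ZNF595 to EXOC1 on chromosome 4, DUSP22 to ZNF451 on chromosome 6) use the NCBI gene order of GRCh38.p14, which matched 16063 of 16116 genes; upstream sequences are from RefSeq on that build. CXCL1, VCAM1 and PTGS2 were not analysed here.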

Additional observations from a re-analysis of the deposited data

How the results depend on the processing

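NFKB2, RELB, NFKBIA, NFKBIE and BIRC3 were called higher under all 17 alternatives to the gene test (6 of which leave out a library), and RELA and TNFAIP3 under 0 of 17. NFKB1 was called under 14, NFKBIB under 9 and IKBKB under 8; all 3 kept their direction in all 17. The number of members called higher was 8 in edgeR and 5 in each of 3 limma fits on log2 of TPM (plus 1, plus 0.1, and plus 1 without a filter), which lost NFKB1, NFKBIB and IKBKB; the cause was not tested. It was 6 to 8 when libraries were left out in turn. Over all genes, these limma fits called 1650 to 1663 higher and 2137 to 2148 lower, of 12068 to 16115 tested. The fits without a library called 1964 to 2445 higher and 1837 to 2327 lower, of 12794 to 12825 tested. RELA turned to -0.00397 without WT replicate 1, the lowest of its values with a library left out; the highest was 0.0610. The number of member transcripts called was 1, and 0 with each library left out in turn (lowest 0, highest 0) and with a replicate block. Calls over all transcripts fell as well, from 939 to between 119 and 307 without a library, and to 89 with the block. Other pathway genes stayed within 1.5 times of their main counts (17 to 21 higher and 10 to 15 lower without a library). The log2 differences of the ratios kept their sign under 9 alternatives each. Whether replicate numbers pair the libraries is not labelled and was not tested. Correlations of deviations were 0.22, 0.02 and 0.16 between same-numbered libraries, and -0.20 to 0.06 between differently numbered libraries. With a replicate block 8 members were called higher, 23 other pathway genes higher and 17 lower. Over all genes the block called 3013 higher and 2934 lower, beside 2380 and 2299 without it. The ratio differences with the block were 0.37, 0.26 and 0.20, with an exact sign-flip p of 0.25, the smallest 3 pairs allow. Each group holds 3 libraries, and 3 reads are worth 0.175 to 0.179 CPM, which limits what can be said of minor transcript models.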
